A study of Mus musculus with 67 samples.

Results

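The ubiquitin-proteasome system was represented on filter A by 128 genes, out of 3905 genes with a spot of their own. They were chosen by gene symbol alone, without any measured value: proteasome subunits (Psma, Psmb, Psmc, Psmd and Psme), E2 and other ubiquitin enzymes (Ube), ubiquitin-specific proteases (Usp), F-box proteins (Fbx), cullins (Cul), RING finger proteins (Rnf) and tripartite motif proteins (Trim). The genes were carried by 174 of the 4788 spots with a single symbol, and 94 genes had 1 spot while 34 had more. The rule matched no E1 (Uba) symbol. By family there were 24 proteasome genes, 15 E2 enzymes, 2 ligases of the Ube3 and Ube4 type, 5 cullins, 23 F-box genes, 27 Rnf genes, 11 Trim genes and 21 Usp genes.

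Ubiquitin is a small protein that is activated by an E1 enzyme, passed to an E2 conjugating enzyme and joined to a target protein with the help of an E3 ligase. Many RING and tripartite motif proteins act as E3 ligases, while cullins and F-box proteins build the multi-subunit ones, in which the F-box protein usually picks the target. Targets with a ubiquitin chain are unfolded by the 19S cap of the proteasome and cut in its 20S core, and ubiquitin-specific proteases take ubiquitin off again. Neurons do not dilute damaged proteins by dividing, and the pathway is widely studied in brain aging.

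Each of 67 arrays was hybridised with cerebral cortex RNA of its own C57BL/6 mouse, and the labels give no transgene or other genetic change. Ages of 1, 6, 16 and 24 months were covered in mice with ad libitum feeding (AL), with 10 mice at each age. Mice on caloric restriction (CR) were killed at 6 (n = 9), 16 (n = 10) and 24 months (n = 8). They were moved at 13 weeks of age from regular to fortified feed, given at 90% and then 75% for a week each and at 60% from then on, as the labels give it, while the study's methods date the start slightly later. Males and females were present in every group, at 30 females and 27 males among the 57 adult mice. The 10 youngest mice were 17 to 44 days old.

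Values are z-scores: each spot's signal as its distance from the mean of its array, in SD of the 8448 spots. A z-score of 1 therefore marks a spot brighter than most on that filter, and brightness depends on the cDNA spotted as well as on the transcript, so levels of different genes were not set against each other as amounts of mRNA. Fewer cells of a type and less RNA per cell cannot be told apart in cortex RNA. Most spots shifted between the arrays numbered 1 to 45 and those numbered 46 to 67, in all groups. This shift was a term of every main limma fit. Lowest, median and highest z of a group of mice are given as deposited, with the shift left in. Array 67, an AL female of 24 months, stood apart, with a median r across genes of 0.785 with the other arrays against 0.965 for the median array. The labelled tissue could be checked only in part. Of 14 neuron markers 3 were on the filter (Snap25, Tubb3 and Stmn3), all with mean z of at least 1.00. Markers of cortical layers, microglia and blood were not among the genes analysed here, and Cbln1, a gene best known from cerebellum, had a mean z of 0.344. By limma, no marker with a mean z above 0 passed adjusted p < 0.05 in a comparison of age, diet or sex, the smallest adjusted p being 0.267. The astrocyte markers on the filter were Aldoc (mean z 1.60), Glul (0.160) and Cst3 (0.477), and those of oligodendrocytes Car2 (1.53) and Fth1 (0.713). Of endothelium, Pecam1 had 1.63 and Cdh5 -0.576. Cdh5 and Ttr of choroid plexus (-0.224) were too dim to be tested.

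Most of the 128 genes gave dim spots. The median of their mean z over the 57 adult arrays was -0.288, against -0.150 for all 3905 genes, and the extremes were -3.97 and 2.82. A gene was tested where this mean was above 0, which held for 44 of 128 (34.4%) and for 42.4% of all genes. Just inside this limit were Fbxw27 (0.0421), Trim47 (0.0546) and Rnf2 (0.0585), and just outside it were Psmc3 (-0.0121), Psma3 (-0.0126) and Fbxo32 (-0.0372). Proteasome genes and the rest differed little in this respect, with medians of -0.252 (n = 24) and -0.288 (n = 104), and no test was made between them.

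The 20S core is a barrel of alpha (Psma) and beta (Psmb) subunits. Of its 11 genes, 4 had a mean z above 0. They were Psma1 at 1.43, Psma4 at 1.12, Psmb1 at 1.08 and Psmb11 at 0.791, while the lowest was Psmb2 at -0.850. On the adult arrays numbered 46 to 67 alone Psmb1 was above Psma4, at 1.38 against 1.09. Psmb11 encodes a beta subunit known from the thymus. The 19S cap unfolds and feeds the substrate with a ring of ATPases (Psmc), of which Psmc2 was highest at 0.121 and Psmc5 lowest at -0.320. Among the 8 non-ATPase genes (Psmd) Psmd9, a chaperone that helps to assemble the cap, had 2.62. Psmd7 had 0.312, and Psmd14, the cap's own deubiquitinase, 0.0868, while Psmd8 was lowest at -1.52. Of the activators that open the core, Psme1 had 0.157 and Psme3 -1.32.

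Among the enzymes that attach ubiquitin, the spot of Rnf103, a ligase of the endoplasmic reticulum, was the brightest, with a lowest value of 2.45, a median of 2.78 and a highest value of 3.52 in the 30 adult females. In the 27 adult males Rnf103 had a lowest value of 2.41, a median of 2.84 and a highest value of 3.30, so the sexes overlapped over nearly their whole range. Ube2c, the E2 that serves the anaphase-promoting complex in mitosis, had a mean of 1.74, and Ube2j2, an E2 of the endoplasmic reticulum, was lowest of the E2 enzymes at -1.99. Cul5 was the highest cullin at 1.03 and Cul1, the scaffold of the SCF ligases, the lowest at -0.623. In the F-box family Fbxo15, known as a marker of embryonic stem cells, had 0.844 and Fbxl6 had -3.97. On the adult arrays numbered 1 to 45 Fbxw17 was above Fbxo15, at 0.868, and on the later ones Fbxl18 was, at 0.908. Among Trim genes the mean was 1.60 for Trim46, which organises microtubules where the axon begins, and -1.42 for Trim8. Trim46 had 2.06 on the adult arrays numbered 1 to 45. On the later ones it had 0.7585, below Trim36 at 1.41, so its place at the head of the family rests on the earlier arrays. Of 21 deubiquitinase genes 5 had a mean above 0, led by Usp1, which acts in DNA repair, at 0.718. On arrays 1 to 45 alone Usp16 was higher, at 0.984 against 0.737 for Usp1. Of the Rnf genes Rnf6 was lowest at -1.31, and of the Ube3 and Ube4 ligases Ube3c had 0.100 and Ube4b -0.968. The lowest Usp gene was Usp22, a subunit of the SAGA coactivator, at -3.09.

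**Figure D1:**
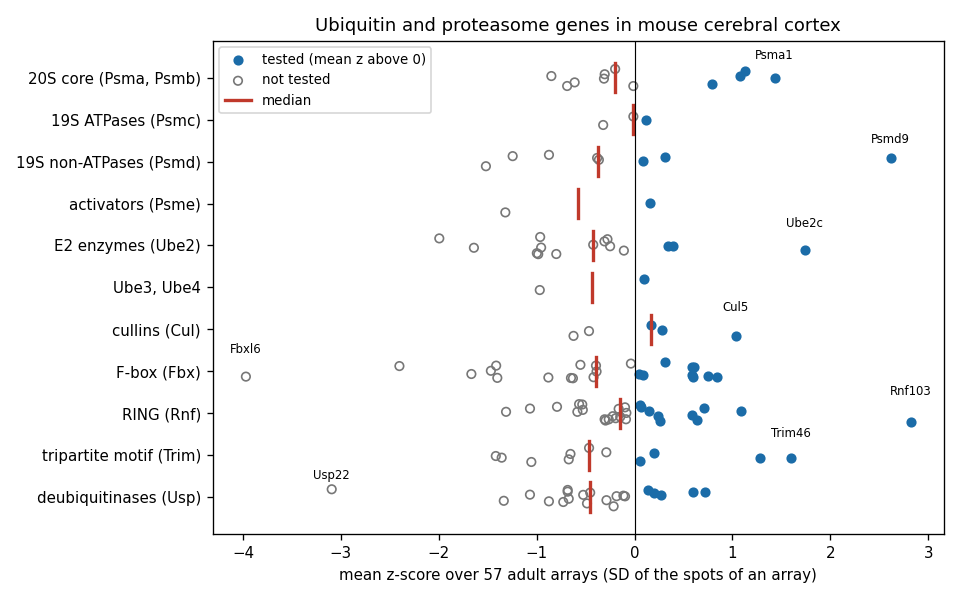
Mean z-score of each of the 128 genes (points) over the 57 adult arrays, by family, with the family median (red bar). Filled points are the 44 genes with a mean above 0, which were tested, and family medians run from -0.581 for the activators to 0.166 for the cullins.

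Spots of a gene often disagreed. Of the 34 genes with more than 1 spot, 21 had spots on both sides of 0, and over 60 pairs of spots the median difference in mean z was 0.662. Usp40, a deubiquitinase, had the widest gap, with -1.83 at spot 2485 and 0.482 at spot 4563. The 2 spots of Cul5 had 2.09 (spot 6547) and -0.0251 (spot 6708), so its place at the head of the cullins rests on 1 spot. Ube2l3, an E2 used by the ligase parkin, had spots at 0.666, 0.366, -0.682 and -0.786. Psma3 had 0.744 and -0.769. Fbxw27 entered the test only through the mean of spots at 1.00 and -0.919. By contrast, both spots of Psmd2, the large scaffold subunit of the cap, were close, at -0.862 and -0.887.

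Spots of a gene also varied little in common from mouse to mouse. After the means of the 12 adult groups and the array shift were taken out, Pearson's r between 2 spots of a gene over 57 arrays lay between -0.568 and 0.663, with a median of 0.106. Pairs were grouped by their spot number modulo 22, called the class here. For 7 pairs of spots of a gene with the same spot number modulo 22, the median r was 0.428, and for the other 53 pairs it was 0.0890. For 670 pairs of spots of different genes with the same number modulo 22 it was 0.0979, and for 12946 pairs further apart than a neighbouring class it was -0.0201. The 3 spots of Psmc2 all fell in class 6, with r from 0.523 to 0.663. The pairs share arrays and spots, so these are descriptions without a test.

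**Figure D2:**
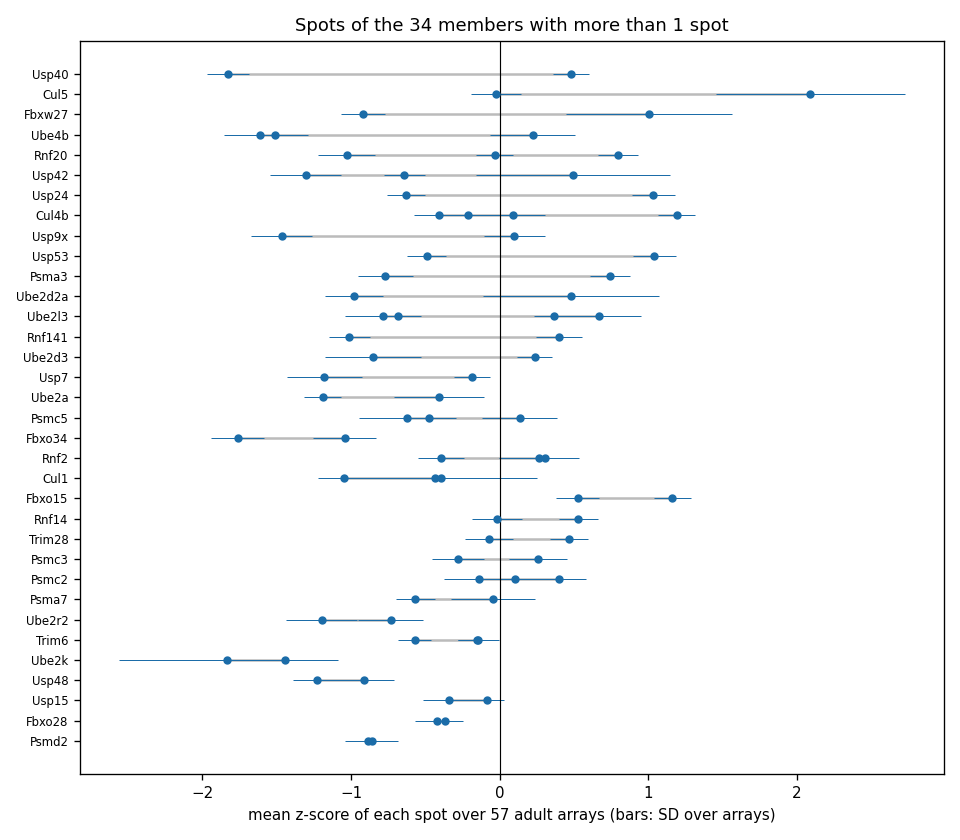
Mean z-score of each spot (points) of the 34 genes with more than 1 spot over the 57 adult arrays, with the SD over arrays (thin bars), ordered by the gap between a gene's spots. The gap runs from 0.0247 for Psmd2 to 2.31 for Usp40.

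Common variation between mice was weak among proteasome genes as a whole. Subunits of a complex are needed together, so their residuals over the 57 arrays were set side by side, as a description. The median r over 276 pairs of proteasome genes was -0.00362, against -0.00466 over all pairs of the 3905 genes. For the 55 pairs within the 20S core it was -0.00175. The share of pairs with r above 0.3 was 15.2% for proteasome genes and 18.2% for the 20S core, against 11.5% for all pairs. The 3 pairs among Psmc2, Psmc3 and Psmc5, ATPases of a single ring, had r from 0.182 to 0.443. The highest value of any proteasome pair was 0.749 and the lowest -0.589. All pairs, which include these, ran from -0.845 to 0.975.

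RefSeq promoter sequences were matched to 96 of the 128 genes, 18 of them proteasome genes, to see what the members share in sequence. Each window ran from 250 bases before a gene's start to 50 after it (GRCm38.p6), and a motif was counted on either strand. The GC box GGGCGG was in 70.8% of members' promoters (61.1% of proteasome genes) and in 49.2% of those of 17492 protein-coding genes. The motif of nuclear respiratory factor 1 (GCGC, then any base, then TGCGC) was in 17.7% of members, 22.2% of the 18 proteasome genes and 7.17% of all. In the same order, CCAAT was in 37.5%, 50.0% and 42.3%, and TATAAA in 12.5%, 16.7% and 14.8%. The antioxidant response element TGACNNNGC, through which oxidative stress can raise proteasome genes, was in 11.5%, 5.56% (Psmd9 alone) and 14.8%, and the E-box CACGTG in 10.4%, 16.7% and 8.91%. These matches are letters in a window and no measure of binding.

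The 150 bases before the start are shown for the 2 brightest 20S genes over all adult arrays and for Psmd9, the brightest Psmd gene. Psmd9 is an assembly chaperone of the cap, as given above. Capitals mark any of the 6 motifs, which may overlap. Psma1 lies at chr7:114276117-114276266 on the minus strand, Psma4 at chr9:54950709-54950858 on the plus strand and Psmd9 at chr5:123228040-123228189 on the plus strand.
Psma1: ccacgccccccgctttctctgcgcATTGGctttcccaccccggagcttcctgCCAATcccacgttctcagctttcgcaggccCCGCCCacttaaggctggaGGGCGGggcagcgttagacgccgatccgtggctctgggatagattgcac
Psma4: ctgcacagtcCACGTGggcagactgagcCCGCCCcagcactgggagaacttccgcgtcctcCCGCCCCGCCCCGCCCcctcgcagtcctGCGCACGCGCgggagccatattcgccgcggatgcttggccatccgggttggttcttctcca
Psmd9: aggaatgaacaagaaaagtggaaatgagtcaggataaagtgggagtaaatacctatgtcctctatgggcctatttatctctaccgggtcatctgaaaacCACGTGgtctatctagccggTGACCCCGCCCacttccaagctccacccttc
Psma1 holds CCAAT and GC boxes on both strands, Psma4 a run of GC boxes with the nuclear respiratory factor 1 motif behind it, and Psmd9, the single proteasome gene with that element here, an E-box and an antioxidant response element that shares letters with a GC box.

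No member passed the test for age, diet or sex. In each of the 14 comparisons 0 of 44 tested members (45 where the youngest mice were included) had adjusted p < 0.05 by limma, as had 0% of all features tested. Values are therefore given with unadjusted p, each time beside the share of all features at the same limit. The precision was about 0.119 z on each side for an age difference in AL mice and 0.0715 z for the sexes or for both diets over 3 ages (median 95% CI of the tested members), so a difference well below these widths is not set apart from 0 in a typical member.

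The interval from 16 to 24 months in AL mice addresses the passage from middle to old age. By unadjusted p < 0.05, 4 of 44 members (9.09%) were counted, against 14.6% of all 3610 features. Without the filter on dim spots the shares were 12.5% of 128 members and 13% of all features. The difference was positive for 13 tested members (29.5%) and negative for 31, with a median of -0.0275 z, while all features had a median of -0.0190 z and 41.7% positive. Without the filter the signs were nearly balanced, at 59 positive and 69 negative of 128 (46.1% positive, against 47.3% of all features). Among Rnf genes 18 of 27 were negative without the filter, among Usp genes 14 of 21 and in the 20S core 7 of 11, while 14 of 23 F-box genes and 7 of 11 Trim genes were positive.

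Fbxl18, an F-box protein, had the smallest p in this interval. Its z at 16 months was 0.350 at the lowest, 0.735 at the median and 0.980 at the highest. At 24 months the values were 0.610, 0.810 and 1.36, the last being array 67. The groups overlapped widely. The difference was 0.144 ± 0.0560 (SE, n = 10 and 10), with unadjusted p = 0.0128 and adjusted p = 0.269 by limma. It was 0.133 within arrays 1 to 45, 0.160 within arrays 46 to 67 and 0.101 without array 67, where the unadjusted p by limma was 0.0613.

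Rnf139, a ligase of the endoplasmic reticulum, had a lowest z of -0.0500, a median of 0.345 and a highest of 0.700 at 16 months, and -0.240, 0.170 and 0.700 at 24 months. Both groups reached the same highest value. The difference was -0.160 ± 0.0658 (limma adjusted p = 0.284), at -0.233 within arrays 1 to 45 and -0.0500 within arrays 46 to 67. Fbxw27 differed by 0.0965 ± 0.0437 (limma adjusted p = 0.303), on spots that disagree as given above. Within arrays 1 to 45 Fbxw27 had 0.0550.

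Psma4, an alpha subunit that closes the ends of the core, was the only tested proteasome gene with unadjusted p < 0.05 here. Its z ran from 0.950 over a median of 1.20 to 1.39 at 16 months and from 0.680 over 1.11 to 1.19 at 24 months. The lowest value was again that of array 67. The difference was -0.126 ± 0.0580 (limma adjusted p = 0.306). Psma1, another alpha subunit, had 0.125 ± 0.0810 over the same interval (limma adjusted p = 0.449), with the opposite sign.

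From 6 to 16 months 0 of 44 members had unadjusted p < 0.05 (2.71% of all features), with 22 differences on each side of 0. The smallest p was that of Fbxw17, an F-box gene, at -0.113 ± 0.0628 (limma adjusted p = 1.00), followed by Psma4 at 0.0858 ± 0.0581 and the transcriptional corepressor Trim28 at 0.0812 ± 0.0554, which was 0.0455 without AL male 6 months replicate 4. The value of Psma4 was 0.172 within arrays 1 to 45 and -0.0850 within arrays 46 to 67. From 6 to 24 months in AL mice the count was again 0 of 44 (7.98% of all features). Of the tested members 36.4% were positive, against 38.4% of all features, and without the filter 66 of 128 were. Rnf14, a ligase and coactivator of the androgen receptor, had -0.0753 ± 0.0471, Ube3c, which extends ubiquitin chains at the proteasome, 0.0746 ± 0.0481 and Fbxw27 0.0665 ± 0.0438.

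In CR mice from 6 to 24 months 0 of 44 had unadjusted p < 0.05 (3.74% of all features). Ube3c had -0.106 ± 0.0534, Rnf208 0.143 ± 0.0764 and the cap subunit Psmd7 0.104 ± 0.0603, with limma adjusted p = 0.992 for each. Without CR male 24 months replicate 2 the value of Psmd7 was 0.0572. The change with age was then compared between diets. For this interaction 3 of 44 members had unadjusted p < 0.05 (9.34% of all features): Ube3c at -0.180 ± 0.0717, Psmd7 at 0.184 ± 0.0809 and Rnf208 at 0.223 ± 0.103, with limma adjusted p from 0.449 to 0.495.

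Ube3c shows how small these differences were beside the spread of its deposited values, which include the shift between the sets of arrays. Its mean z was 0.0189 on the adult arrays numbered 1 to 45 and 0.25 on those numbered 46 to 67. In AL mice its median z was 0.0650 at 6 months and 0.0750 at 24 months, with ranges of -0.110 to 0.190 and -0.120 to 0.470. In CR mice Ube3c had a median of 0.110 at 6 months and 0.0150 at 24 months, with ranges of -0.0600 to 0.380 and -0.150 to 0.250. All 4 groups overlapped.

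**Figure D3:**
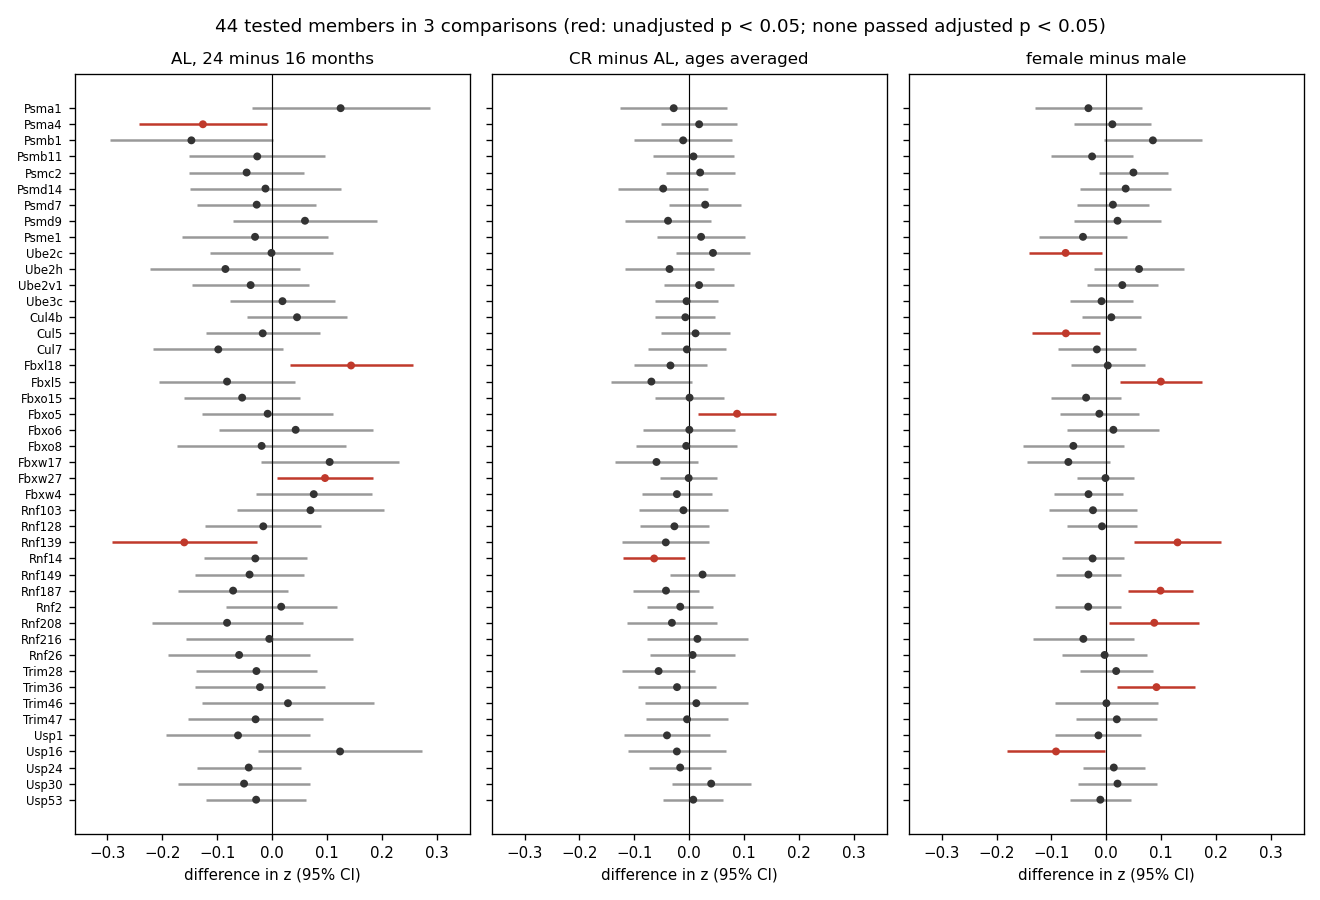
Difference in z with its 95% CI for the 44 tested members from 16 to 24 months in AL mice, between diets and between sexes, ordered by family. Red marks unadjusted p < 0.05, held by 4, 2 and 8 members, and 0 passed adjusted p < 0.05.

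Caloric restriction was compared with ad libitum feeding at each age and over the 3 ages. At 6 months 1 of 44 members had unadjusted p < 0.05 (3.82% of all features), Rnf208 at -0.143 ± 0.0708, followed by Fbxo5 at 0.110 ± 0.0618 and Ube3c at 0.0870 ± 0.0495. At 16 months there were 0 (1.33% of all features), with Ube2c at 0.102 ± 0.0558, Psmd14 at -0.114 ± 0.0687 and Rnf128 at -0.0770 ± 0.0527. Each of these rested in part on a single mouse: Ube2c had 0.0530 without CR male 16 months replicate 1, Psmd14 -0.0684 without CR male 16 months replicate 2 and Rnf128 -0.0451 without AL male 16 months replicate 3. At 24 months there was 1 (10.5% of all features), Fbxl18 at -0.156 ± 0.0605 (limma adjusted p = 0.323), or -0.114 without array 67. Fbxo5 followed at 0.121 ± 0.0647 and Ube3c at -0.0932 ± 0.0519. Without the filter 14 of 128 members (10.9%) had unadjusted p < 0.05 at this age, against 11.3% of all features. This comparison shares its AL mice of 24 months with the age comparison in which Fbxl18 was also named. Fbxl18 had a median of 0.740 in CR mice of 24 months, between 0.410 and 0.920.

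Over the 3 ages 2 of 44 members had unadjusted p < 0.05 for diet (4.68% of all features). Fbxo5, the early mitotic inhibitor Emi1 that holds back the anaphase-promoting complex, ran from 0 over a median of 0.635 to 1.04 in 30 AL mice and from 0.120 over 0.710 to 1.00 in 27 CR mice. These ranges include the shift between the sets of arrays, which was -0.545 for Fbxo5. The fitted difference between diets was 0.0873 ± 0.0359 (limma adjusted p = 0.950), at 0.0671 within arrays 1 to 45 and 0.126 within arrays 46 to 67. Rnf14 had -0.0638 ± 0.0282. Fbxl5, an F-box protein that senses iron, followed at -0.0688 ± 0.0371. Of the 44 members 27 were lower in CR mice by sign, with a median of -0.00616 z (38.6% positive, against 52.9% of all features). Without the filter 45.3% of members and 51.9% of all features were positive.

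Females and males were compared over all adult groups. At unadjusted p < 0.05 there were 8 of 44 members (18.2%), against 8.01% of all features. In a fit of all 128 members without the filter on dim spots the shares were closer, at 13 of 128 (10.2%) and 8.06%, and the count was below the 16 for the interval from 16 to 24 months and the 14 for diet at 24 months. The sign was positive (females above males) for 5 of them (4.52% of all features), namely Rnf187, Rnf139, Fbxl5, Trim36 and Rnf208, and negative for 3 (3.49% of all features), namely Cul5, Ube2c and Usp16. By limma the smallest adjusted p was 0.368.

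Rnf187, a ligase of a transcriptional coactivator pathway, had z of 0.510 at the lowest, 0.760 at the median and 1.14 at the highest in 30 females, and 0.130, 0.650 and 0.900 in 27 males. The sexes overlapped from 0.510 to 0.900, while the lowest value was a male's and the highest a female's. The difference was 0.0989 ± 0.0299 (limma unadjusted p = 0.00164), at 0.0832 within arrays 1 to 45 and 0.113 within arrays 46 to 67. Rnf139 had -0.290, 0.280 and 0.700 in females and -0.240, 0.210 and 0.520 in males, with a difference of 0.130 ± 0.0394 (limma unadjusted p = 0.00172). For Rnf139 both sets of arrays gave a positive difference, 0.118 and 0.152.

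Fbxl5 differed by 0.0995 ± 0.0371 between the sexes and Trim36, a ligase of the cytoskeleton, by 0.0915. The values of Cul5 (-0.0736), Ube2c (-0.0741) and Usp16 (-0.0916), a histone H2A deubiquitinase, went the other way. The z-ratio rule of the study's methods makes no adjustment for the number of tests and has no term for the array shift. By it 3 members passed for sex (Rnf139, Rnf187 and Trim36, all higher in females). That is 6.82% of 44 against 2.5% of all features, and 0 passed after Benjamini-Hochberg adjustment.

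Interactions of sex were small. For sex by age 0 of 44 members had unadjusted p < 0.05 (0.72% of all features), with Psmc2 at 0.142 ± 0.0785, Rnf187 at 0.101 ± 0.0744 and Usp1 at -0.131 ± 0.0974. Rnf187 had 0.0261 without CR male 24 months replicate 1 and 0.0671 without CR female 24 months replicate 5, and Usp1 had -0.0801 without AL female 24 months replicate 2. For sex by diet there were 2 (4.54% of all features), Fbxw17 at 0.179 ± 0.0751 and Rnf139 at -0.176 ± 0.0789, followed by Trim47, a ligase of blood vessels, at -0.143 ± 0.0740.

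**Figure D4:**
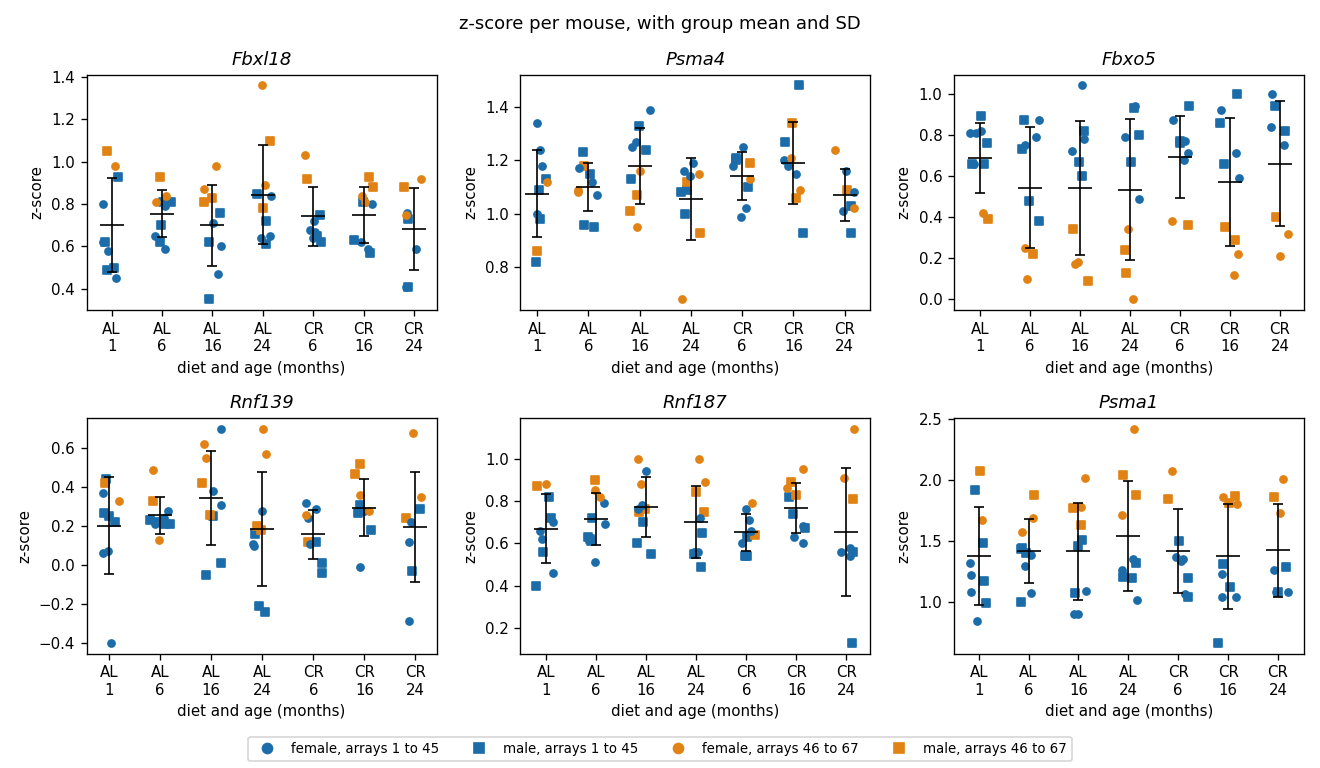
z-score of each mouse (points) for 6 members by diet and age, with the group mean and SD (bars), circles for females, squares for males and colours for the sets of arrays. For Fbxo5 and Psma1 the colours separate in nearly every group, while diet and age groups overlap.

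Young mice were compared in a fit of the 40 AL arrays. From 1 to 6 months 0 of 45 members had unadjusted p < 0.05 (3.47% of all features), and without the filter 9 of 128 (7.03%) against 3.91%. The smallest p of the tested members were those of Rnf14 at 0.0816 ± 0.0421, Trim46 at -0.135 ± 0.0764 and Rnf2, a polycomb ligase of histone H2A, at 0.0746 ± 0.0481. The mice called 1 month old fell into 5 of 17 to 21 days and 5 of 33 to 44 days, on either side of weaning age.

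Psma1 was the 1 member of 45 with unadjusted p < 0.05 between these young ages (2.11% of all features). Its z was 0.840, 0.990, 1.08, 1.17 and 1.22 in the younger mice and 1.32, 1.48, 1.67, 1.92 and 2.07 in the older. The groups did not overlap, which held for 1 of 45 members and 0.75% of all features. The fit gave 0.371 ± 0.129, with limma unadjusted p = 0.00639 and adjusted p = 0.999. All 5 younger mice but only 3 of the 5 older ones were on arrays 1 to 45, where Psma1 differed by 0.471. Arrays 46 to 67 held no younger mouse. By the z-ratio rule Psma1 also passed as 1 of 45, against 1.66% of all features. That rule and the overlap of values hold no term for the shift between the sets of arrays. For Psma1 this shift was 0.683 upward in adult mice. Fbxw4 had -0.195 ± 0.101, or -0.0680 without AL male 1 months replicate 1, and Usp1 -0.167 ± 0.108, or -0.0421 without AL female 1 months replicate 4.

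The shift between the sets of arrays passed the test in most members, though not in all. It was called by limma in 30 of 44 members (68.2%), against 71.6% of all features, with 16 members upward (34.7% of all features) and 14 downward (37% of all features). Trim46 had a lowest z of 1.61, a median of 2.06 and a highest of 2.33 on the 37 adult arrays numbered 1 to 45, and 0.100, 0.755 and 1.03 on the 20 later ones. The sets did not overlap, and the shift was -1.31 ± 0.0492 (limma adjusted p = 1.03e-31). Rnf216 shifted by -1.12, Usp16 by -1.10, Rnf26 by -0.810, Fbxw17 by -0.748, Cul5 by -0.728 and both Fbxw27 and Fbxo5 by -0.545. Fbxo6 shifted by 0.716, Psma1 by 0.683, Rnf128 by 0.554 and Psmc2 by 0.392. Over all 174 member spots the median absolute shift was 0.181, close to the 0.164 of all spots on the filter. Of the member spots 25 exceeded 0.5, a count that was not made over all spots.

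The direction mostly followed the class of the spot number. Of the 174 member spots, 147 shifted the way of the mean of all spots with the same number modulo 22. The r between a member's shift and that mean was 0.808. Neither value was computed over all spots, so neither shows anything particular to the members. Some class means lay close to 0, at 0.00724 for class 7, 0.000329 for class 19 and -0.00649 for class 21. Agreement in sign means little in those classes. Class 14, which had the lowest mean shift of the 22 classes, held Trim46, Rnf216 and a spot of Usp42 that shifted by -1.31. The other spots of Usp42 shifted by -0.346 and -0.0668.

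**Figure D5:**
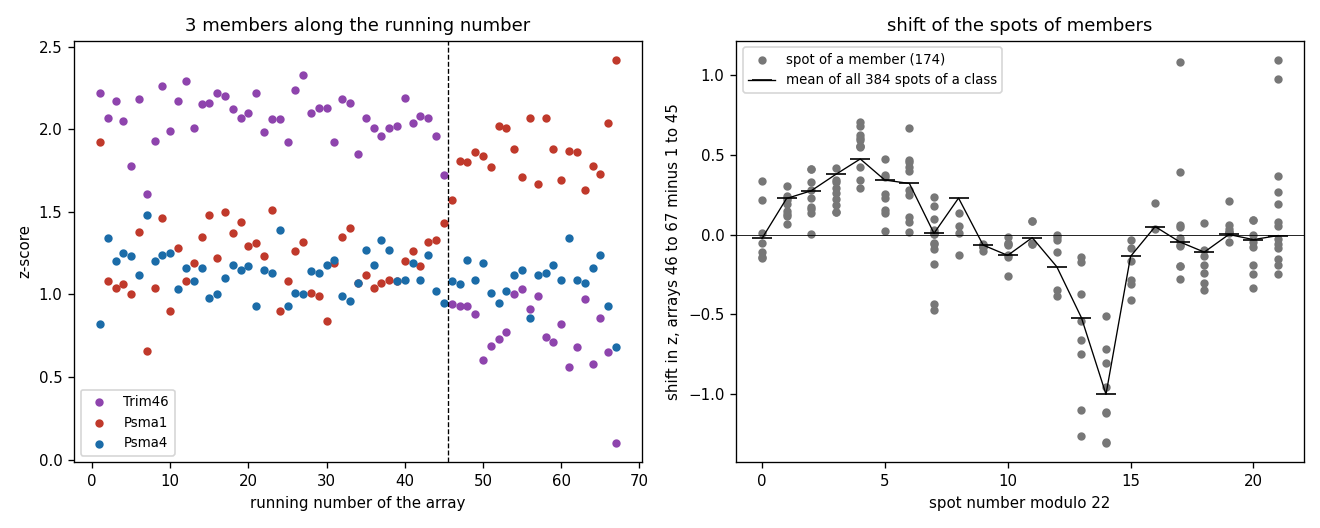
z-score of Trim46, Psma1 and Psma4 against the running number of the array (left, dashed line between 45 and 46), and shift in z of the 174 member spots by spot number modulo 22, with the mean of the 384 spots of each class (right). Member spots fall by up to 1.31 and rise by up to 1.10, along the class means.

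The spread among mice was close to that of other features. At 6 months in AL mice the median SD of residuals was 0.119 for the 44 tested members and 0.123 for all features. At 24 months it was 0.146 and 0.143, and without array 67 it was 0.120 and 0.128. Age and spread were not tested against each other.

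Fbxl18, the member with the smallest p from 16 to 24 months, was compared with the other members by the r of residuals over the 57 adult arrays. Trim43a (0.642), Trim30d (0.595), Ube2e3 (0.565), Psma1 (0.561) and Psme3 (0.518) were most like it. Array 67, which held the highest Fbxl18 value, is among these arrays. Over the other 56, in a check chosen after the data were seen, r was 0.629 for Trim43a, 0.495 for Trim30d, 0.419 for Ube2e3, 0.459 for Psma1 and 0.506 for Psme3, and Trim43a was still the first while Psma1 came 7th. Of these 5 only Psma1 was among the tested genes, and the spot numbers of Fbxl18 and Psma1 both fall in class 6. The r come from the arrays that also gave the differences above.

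Other genes of the pathway were taken from a list of 109 symbols, of which 51 were on the filter and 22 were tested. By limma 0 of 22 passed in any comparison of age, diet or sex. From 16 to 24 months in AL mice 5 of 22 had unadjusted p < 0.05 (14.6% of all features), 2 positive and 3 negative. Pomp, which helps to assemble the 20S core, had 0.143 ± 0.0581 and Psmg2, another assembly chaperone, 0.159 ± 0.0655. Uchl1, the abundant ubiquitin hydrolase of neurons, had -0.118 ± 0.0512, Ufd1, a cofactor of the segregase Vcp, -0.131 ± 0.0548 and Btrc, the F-box protein that targets beta-catenin, -0.125 ± 0.0522. Adjusted p by limma lay from 0.280 to 0.288 for the 5. Between diets at 24 months, in a comparison that shares the same old AL mice, 3 of 22 had unadjusted p < 0.05 (10.5% of all features): Pomp at -0.163 ± 0.0628, Btrc at 0.135 ± 0.0563 and Mdm2, the ligase of p53, at 0.105 ± 0.0499. There Psmg2 had -0.0933 ± 0.0708, Ufd1 0.102 ± 0.0592 and Uchl1 0.0225 ± 0.0554. Between the sexes 3 of 22 had unadjusted p < 0.05 (8.01% of all features, 4.52% positive), all positive, led by Bag6, a chaperone for faulty new proteins, at 0.115 ± 0.0316.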

How the data were processed

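Each deposited value is a score: the authors hybridised radiolabelled cDNA to filter A and turned each array's signals into z-scores, with mean 0 over the array. Whether signals were log-transformed first is not given in the sources used here, so differences are in z and are no folds. Spots of a gene were averaged, which gave 7565 features with unnamed spots kept singly. Limma 3.58.1 in R 4.3.3 was fitted to features with mean z above 0 (3610 in 57 adult arrays, 3600 in 40 AL arrays), with a mean per group of age, diet and sex and a term for arrays 46 to 67; tests were two-sided with Benjamini-Hochberg adjustment over all features. For each comparison members past adjusted p < 0.05 (at most 12, by smallest p), or where fewer than 3 passed the 3 with the smallest p, were named, with the highest and lowest member of each family. Psma4, Ube2n and the other members named for their values were chosen after these were seen. The members, the list of other pathway genes and the design were chosen with earlier results of these data known. The fits were tested on simulated data. Gene symbols came from the platform table, and all 128 matched current ones. Alternatives were no array term, no filter, single spots, array weights, a robust and trended prior, quantile normalization, 5 rounds of the running number, the sets alone, the z-ratio rule of the methods and leaving out arrays. Figures were drawn with matplotlib 3.10.9.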

Additional observations from a re-analysis of the deposited data

Results flagged for a closer look

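Values of the named members, with the shift between the sets of arrays taken out, were examined for a mouse far from the rest of its group of diet and age. Of 138 groups (23 genes in 6 groups), 13 held one, and chance flags about 1 in 20 groups. Array 67, the AL female of 24 months that stood apart from all arrays, was the far value for Psma1 at 2.08 (next value 1.70), Psma4 at 0.709 (0.959), Rnf128 at 0.943 (0.747) and Trim46 at 0.753 (1.30). Array 60, an AL female of 6 months, was far for Rnf139 at 0.0207 and for Rnf208 at -0.337. Trim28 had 3 such mice, at -0.164 in AL mice of 6 months, 0.0863 in AL mice of 24 months and -0.279 in CR mice of 24 months. The others were Psma1 at 1.00 in CR mice of 16 months, Rnf14 at 0.101 and Rnf208 at -0.273 in AL mice of 16 months, and Trim47 at -0.189 in CR mice of 6 months.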

How the results depend on the processing

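In the 14 comparisons of age, diet and sex the count of members past adjusted p < 0.05 stayed at 0 under every alternative based on limma, from 0 to 0 when each array was left out in turn, without array 27 (an AL male of 24 months whose description repeats that of array 1) and within either set of arrays. The z-ratio rule of the methods is not adjusted and holds no term for the array shift. It gave 3 members for sex and 1 (Psma1) for 17 to 21 days against 33 to 44 days. The shift between the sets of arrays was called in 94 of 128 members (73.4%) without the filter, against 70% of all features. With 5 rounds of the running number as a block beside it, it was called in 17 of 44 members. There the rounds hold part of the shift by construction, and the share of all features is not given. Leaving out each array gave 29 to 32 members, again with no share of all features to set beside it. Psma4 from 6 to 16 months reversed to -0.0850 within arrays 46 to 67, and the cause was not tested. No other difference among the genes chosen by the naming rule reversed where it was fitted. Within arrays 46 to 67 Fbxw27 and Rnf208 fell below the filter, as did Psmd14, Psmc2 and Rnf2 within arrays 1 to 45. Their differences have no value there. Genes named outside the rule, such as Psma4 and Psma1 from 16 to 24 months, Cul5, Trim36, Ube2n and the other pathway genes, were not run under these alternatives. The level of a family depends on which spot stands for a gene, as for Cul5 and Fbxw27. No paired analysis was possible because the labels give a running number for the arrays and no replicate number shared by groups, so the 5 rounds are a stand-in and pair no mice. The 17 to 21 day comparison could not be fitted within arrays 46 to 67, and the z-ratio rule could not be applied to interactions. The number of arrays and dim spots limit the rest: 84 of 128 members were below the filter.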

Other observations

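Members too dim for the filter were fitted as well, and those with the smallest p in 4 comparisons are given here, chosen after their values were seen. Larger differences with larger p existed, such as Usp22 at 0.890 for the change with age between diets. Ube2n, the E2 that makes lysine 63 chains, had a mean z of -0.954. At 24 months its z ran from -1.18 over a median of -0.770 to -0.530 in AL mice and from -1.32 over -1.15 to -0.690 in CR mice, so the groups overlapped. The difference was -0.236 ± 0.0627 (unadjusted p = 0.00042 and adjusted p = 0.148 by limma without the filter), the smallest p of any of the 128 members in that comparison. For the change from 6 to 24 months between diets, Ube2n had -0.335 ± 0.0867 (limma adjusted p = 0.197). Psmd6, a cap subunit with a mean z of -1.25, had -0.134 ± 0.0353 between the sexes, with lower values in females (limma adjusted p = 0.387). It ran from -1.63 over -1.31 to -1.11 in females and from -1.46 over -1.15 to -0.860 in males.

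Over the 3 ages Psma3 had -0.0859 ± 0.0286 for restriction without the filter (limma adjusted p = 0.764), the smallest p of the 128 members for diet, and it is 1 of the genes whose spots lie on both sides of 0.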
